A study of Mus musculus with 8 samples.

Results

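A set of 10 genes of the NRF2 antioxidant response was followed in collecting duct cells exposed to hypertonic NaCl. They were the gene of the factor itself, Nfe2l2, and the antioxidant genes Slc7a11, Gclc, Gclm, Gsr, Txnrd1, Prdx1, Srxn1, Hmox1 and Nqo1. They were taken by gene symbol from a table of raw counts for 15288 genes, and all 10 were among the 14024 genes that passed the filter on low counts. IMCD is a mouse line from the inner medullary collecting duct, a part of the kidney that lies in concentrated interstitial fluid and is often exposed to high salt. Cells grown in high-glucose DMEM with 10% FBS were moved to DMEM free of FBS for 12 h, either as it is (control, 4 libraries, replicates 1 to 4) or with 100 mmol NaCl (4 libraries, replicates 5 to 8). The NaCl amount has no volume in the labels, and serum withdrawal was common to both groups. The labels do not say that the libraries came from separate cultures, so the p-values measure the spread between these libraries, which may be technical.

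NRF2 is a transcription factor that the KEAP1 ubiquitin ligase adaptor sends for degradation in unstressed cells. Oxidants and electrophiles modify cysteines of KEAP1, NRF2 then accumulates, pairs with a small MAF protein and binds antioxidant response elements. Its targets supply cystine for glutathione, build and recycle glutathione and thioredoxin, remove peroxides, and detoxify heme and quinones. The factor is controlled mainly as a protein, so its own transcript level does not measure its activity.

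With NaCl, 2 of the 10 genes rose (Nqo1 and Srxn1), 4 fell (Slc7a11, Gclc, Txnrd1 and Gsr) and 4 did not pass the test (Nfe2l2, Gclm, Prdx1 and Hmox1). The test was edgeR's quasi-likelihood test with Benjamini-Hochberg adjustment over all genes tested, with calls made at adjusted p-values under 0.05. Of all genes tested, 34.1% were called, 16.9% higher and 17.2% lower, so a called gene was common in this comparison. The median log2 fold change of the 10 genes was -0.21, against 0.0029 for all genes tested, and 8 of the 10 values were negative. In 7 of the 10 genes the 4 NaCl libraries did not overlap the 4 controls, as in 33.4% of all genes tested.

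**Figure D1:**
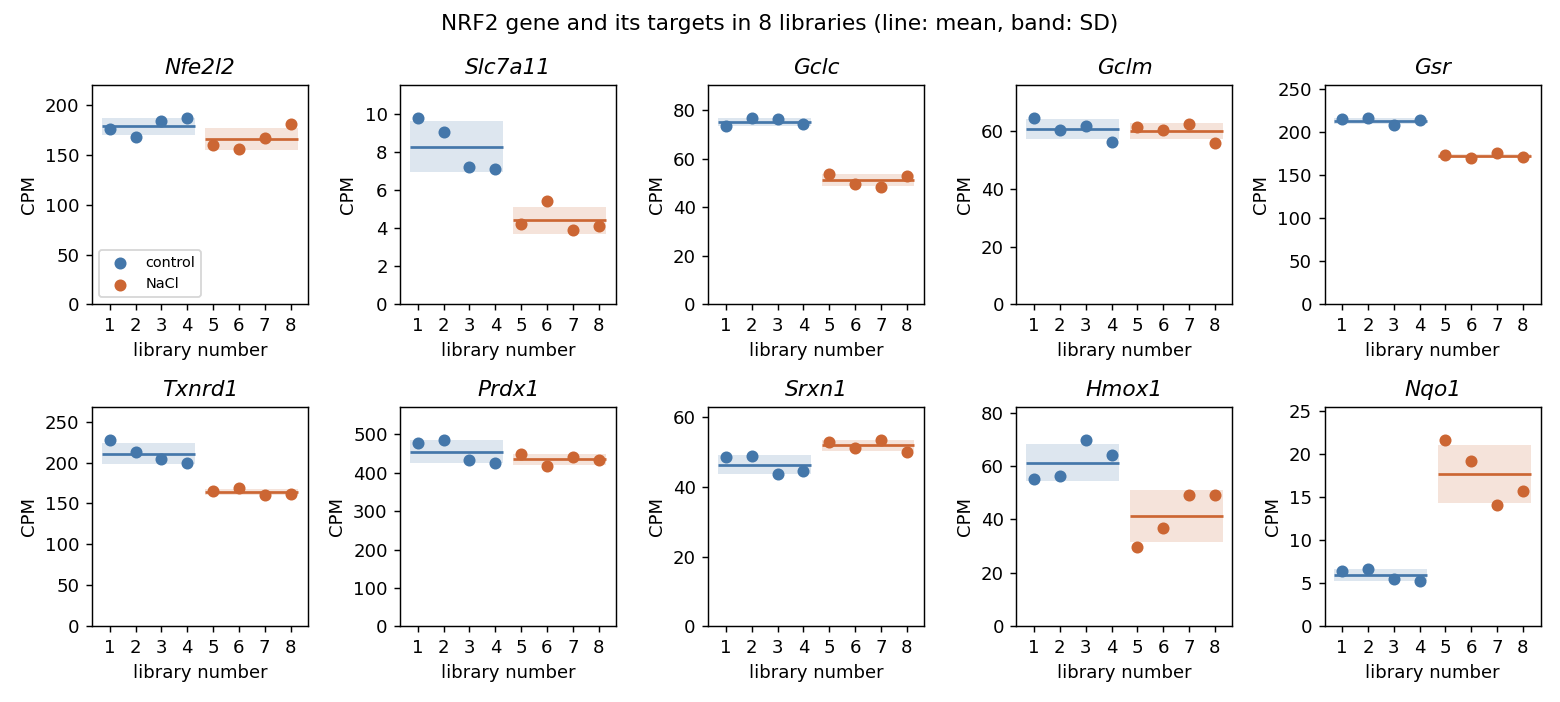
Normalised read counts (CPM, per 1 M counts, with TMM-adjusted library sizes) of the 10 genes in each of the 8 libraries, in blue for control and orange for NaCl, with the group mean as a line and the SD as a band. Nqo1 and Srxn1 lie higher in every NaCl library than in any control, Slc7a11, Gclc, Gsr, Txnrd1 and Hmox1 lie lower, and the groups overlap for Nfe2l2, Gclm and Prdx1.

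RNA totals ranged from 41.77 to 47.57 M counts in control and from 35.29 to 42.39 M in NaCl libraries. Genes of the collecting duct marker list were present, with Cdh16 at 549 to 1480 CPM, Pax8 at 147 to 242 CPM, Krt8 at 90.2 to 122 CPM and Hoxb7 at 56.3 to 76.2 CPM. Of the genes that define principal cells, the water channels Aqp2 and Aqp3 were near 0, at no more than 0.363 and 0.662 CPM in any library. Scnn1b, Aqp4, Avpr2 and Hsd11b2 were low too, at no more than 0.338, 0.5, 1.16 and 1.35 CPM. Gata3 had 5.72 to 9.30 CPM, Scnn1g 1.8 to 4.2 CPM and Scnn1a 1.89 to 2.76 CPM. The epithelial cadherin Cdh1 had no more than 0.709 CPM. The summed level of the 20 measured collecting duct markers was 1460 to 1854 CPM in control and 2324 to 2639 CPM in NaCl libraries, and most of that difference was Cdh16, with means of 639 and 1379 CPM. Of the 17 of these markers tested, 5 rose, 3 fell and 9 did not pass, and their median log2 fold change was 0.04. Of the 6 measured fibroblast markers the sum was 3128 to 3634 CPM in control and 2819 to 3253 CPM in NaCl libraries, most of it Col1a1 (means of 2492 and 2147 CPM). Of these 6 markers 1 rose (Pdgfrb, with means of 37.5 and 61.1 CPM), 2 fell and 3 did not pass, with a median of -0.09 on the log2 scale. The 3 measured leukocyte markers summed to 12.97 to 17.85 CPM in control and 21.26 to 26.12 CPM in NaCl libraries, with a higher mean for Ptprc (4.05 and 13.4 CPM) and lower means for Cd68 (2.41 and 1.69 CPM) and Csf1r (9.22 and 8.86 CPM). The 3 measured proximal tubule markers summed to 162.2 to 204.9 CPM in control and 155.2 to 176.6 CPM in NaCl libraries. Most of that was Lrp2, at 152 to 203 CPM, a higher level than that of Krt8 or Hoxb7. The 3 measured endothelium markers, mostly Flt1 by level, summed to 45.45 to 57.02 CPM in control and 34.78 to 53.47 CPM in NaCl libraries. The 2 measured intercalated cell markers, Slc4a9 and Atp6v0d2, both fell, and their sum was 5.34 to 10.4 CPM in control and 1.37 to 2.45 CPM in NaCl libraries. The 4 measured markers of the thick ascending limb and distal tubule, most of them Kcnj1 by level, summed to 9.86 to 12.7 CPM in control and 20.3 to 26 CPM in NaCl libraries. The part of these shifts in the results on the 10 genes was not tested. In bulk RNA, fewer cells that express a gene and less RNA per cell cannot be told apart.

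The starts of the genes were searched for short binding letters, to show what sequence these promoters carry next to how the genes behaved. RefSeq promoter windows on GRCm38.p6, from 250 bases before to 50 after a transcript start, matched 7 of the 10 genes in 9 windows, 3 of them for Txnrd1. No window was matched for Hmox1, Gclc and Gsr. Letters of the antioxidant response element (TGACNNNGC, either strand) were found in 5 of the 9 windows, in Nfe2l2, Gclm, Txnrd1, Prdx1 and Srxn1, and in 12.4% of all 32851 windows. Of these 5 genes, Srxn1 rose, Txnrd1 fell, and Nfe2l2, Gclm and Prdx1 did not pass the test. The matches are shown with 10 bases on each side, in the direction of the gene, with the element in capitals. In all but Nfe2l2 the element reads on the opposite strand, so the capitals show its reverse complement.
Nfe2l2, chr2:75704885-75704913, minus strand, from 240 bases before the start: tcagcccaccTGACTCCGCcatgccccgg
Gclm, chr3:122245413-122245441, plus strand, from 134 bases before the start: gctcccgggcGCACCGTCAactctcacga
Prdx1, chr4:116685456-116685484, plus strand, from 133 bases before the start: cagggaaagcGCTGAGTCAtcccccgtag
Txnrd1, chr10:82859104-82859132, plus strand, from 92 bases before the start: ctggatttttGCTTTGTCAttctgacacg
Srxn1, chr2:152105542-152105570, plus strand, from base 29 after the start: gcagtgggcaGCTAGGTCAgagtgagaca
The 50 bases after the RefSeq start are part of a GENCODE M21 transcript of the gene for the matches shown, except in Nfe2l2. In Prdx1 the element overlaps letters of AP-1. The Txnrd1 match lies in 1 of its 3 windows, before a start inside the gene (upstream part chr10:82858956-82859205). The window at the 5' end of Txnrd1 (upstream part chr10:82833701-82833950) had no match.

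AP-1, the FOS and JUN dimer, binds the related letters TGACTCA. They were found on either strand in Srxn1 and Prdx1, with 2 matches each, and in 5.2% of all windows. Srxn1 rose and Prdx1 did not pass the test, and a link between these letters and the change of a gene was not tested. All 4 matches are shown with the AP-1 letters in capitals, which read on the strand of the gene in the upstream Prdx1 match and on the opposite strand in the others.
Srxn1, chr2:152105412-152105438, plus strand, from 102 bases before the start: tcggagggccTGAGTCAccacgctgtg
Srxn1, chr2:152105469-152105495, plus strand, from 45 bases before the start: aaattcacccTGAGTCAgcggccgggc
Prdx1, chr4:116685352-116685378, plus strand, from 237 bases before the start: aacgaggaaaTGACTCAaagggcagtg
Prdx1, chr4:116685458-116685484, plus strand, from 131 bases before the start: gggaaagcgcTGAGTCAtcccccgtag
Letters of the ATF4 element (TGATGNAA), bound by a factor of the amino acid response, were found in Slc7a11 and in 3.97% of all windows. Slc7a11 holds 2 matches, one on each strand, in overlapping stretches.
Slc7a11, chr3:50443662-50443689, minus strand, from 66 bases before the start: ctcatgtggcTGATGCAAacctggagaa
Slc7a11, chr3:50443643-50443670, minus strand, from 47 bases before the start: cctggagaatTTGCATCAtcatgcagcc
The element of NFAT5, the factor of the hypertonic response (TonE), had a match in 0 of the 9 windows and in 4.96% of all windows. Nqo1, which changed most, had no match to any of these motifs in its window. A match describes letters, not a bound site, and no match says only that the letters are not in this window.

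Nfe2l2 (ENSMUSG00000015839, chr2:75675513-75704641, minus strand, GRCm38) encodes NRF2. Its level was 176, 168, 184 and 187 CPM in control replicates 1 to 4 and 160, 157, 167 and 182 CPM in NaCl replicates 5 to 8. The groups overlapped, since NaCl replicate 8 lay above 2 of the controls. The log2 fold change was -0.10 (SE 0.047, 95% interval -0.20 to -0.0056), and its edgeR adjusted p of 0.0970 did not pass. Within both groups the level moved with the number in the library titles, by 0.051 on the log2 scale per library (edgeR adjusted p = 0.0116). Of the 14024 genes, 1847 had a slope past the same threshold, in either direction. With that number as a covariate centred within each group, the log2 fold change was -0.11 and passed (adjusted p = 0.00632). The genes whose 8 values followed those of Nfe2l2 most closely were Eva1a, Plekhb2 and Msn, with a root-mean-square distance on the log2 scale of 0.0229, 0.0273 and 0.0307 among 10102 genes compared.

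Among 18 genes of the machinery around NRF2, 2 rose, 5 fell and 11 did not pass the test, with a median log2 fold change of -0.0082. Keap1, the inhibitor, had a log2 fold change of 0.10 (edgeR adjusted p = 0.0549), and its ligase partners Cul3 and Rbx1 had 0.04 and -0.03. The repressor Bach1 had -0.11 and the small MAF genes Mafg and Mafk had 0.01 and 0.04, none of them past the test. The largest decreases were in Bach2, a relative of Bach1 (log2 fold change -0.78; 8.55 ± 1.06 to 4.97 ± 0.579 CPM, SD, n = 4 each; edgeR adjusted p = 8.42e-05), and Nfe2l3, a relative of NRF2 (log2 fold change -0.45, adjusted p = 0.0287). Sqstm1, whose protein p62 takes KEAP1 to autophagy, fell from 572 ± 14.8 to 464 ± 10.7 CPM (SD, n = 4 each; log2 fold change -0.30, edgeR adjusted p = 1.88e-06). The other genes that fell were Dpp3 and Pgam5, and the 2 that rose were the coactivators Ep300 (0.26) and Crebbp (0.21). Leaving out any one of control replicates 1 and 2 or NaCl replicates 6 and 8 ended the call of Nfe2l3 (adjusted p from 0.0621 to 0.0863).

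Glutathione supply was next. Slc7a11 (ENSMUSG00000027737, chr3:49892526-50443614, minus strand) encodes the light chain of the transporter that brings in cystine for glutathione. Its controls had 465, 380, 298 and 299 counts and its NaCl libraries 151, 230, 161 and 172, or 9.74, 9.01, 7.20 and 7.07 CPM against 4.21, 5.44, 3.90 and 4.10 CPM. Every NaCl library lay below every control, and control replicates 1 and 2 lay above replicates 3 and 4. It had the lowest log2 fold change of the 10 genes, -0.90 (SE 0.14, 95% interval -1.19 to -0.61; edgeR adjusted p = 7.99e-05). With a linear drift over library numbers 1 to 8 in the fit it was -0.39 and did not pass (adjusted p = 0.262).

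Gclc (ENSMUSG00000032350, chr9:77754535-77794485, plus strand) encodes the catalytic subunit of glutamate-cysteine ligase, the rate-limiting enzyme of glutathione synthesis. Its controls had 73.4, 76.5, 76.2 and 74.0 CPM, close to each other, and its NaCl libraries had 53.6, 49.6, 48.5 and 52.8 CPM. The groups lay far apart, and the level was 1.47-fold lower with NaCl (log2 fold change -0.55, SE 0.043; edgeR adjusted p = 4.84e-08). Gclm (ENSMUSG00000028124, chr3:122245557-122270732, plus strand) encodes the modifier subunit of the same enzyme, which raises its affinity for substrate. Its values were 64.4, 60.3, 61.9 and 56.2 CPM in control and 61.3, 60.3, 62.4 and 56.0 CPM in NaCl libraries, and the groups overlapped. Its log2 fold change was -0.02 (SE 0.049, 95% interval -0.12 to 0.09; edgeR adjusted p = 0.828). Gm6061 on the same strand and Gm17494 on the opposite strand overlap 3.88% and 4.71% of the exon length of Gclm, and the counting could have split such reads.

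The ratio of Gclc to Gclm counts in the same library, which no scaling of the libraries can change, was 1.14, 1.27, 1.23 and 1.32 in control and 0.874, 0.823, 0.777 and 0.943 in NaCl libraries. Gclc thus had more counts than Gclm in each control and fewer in each NaCl library. Counts are not corrected for gene length. Per kilobase of exon, Gclc stayed above Gclm with NaCl, at 12.87 to 14.23 against 8.9 to 9.914 CPM. The mean log2 ratio was 0.31 ± 0.089 in control and -0.23 ± 0.12 in NaCl (SD, n = 4 each), a difference of -0.54. The exact two-sided permutation p was 0.029, the smallest that 4 against 4 libraries can give, and 0.0343 adjusted over the 6 ratios tested.

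Of the 16 other genes tested for glutathione synthesis and turnover, 4 rose, 4 fell and 8 did not pass, with a median log2 fold change of -0.03. Genes that fell were Cth, which makes cysteine from cystathionine (26.6 ± 5.24 to 17.96 ± 2.47 CPM, SD, n = 4 each; log2 fold change -0.57, edgeR adjusted p = 0.0149), the amino acid transporter Slc1a5 (-0.47, adjusted p = 1.03e-06), glutathione synthetase Gss (-0.21) and Slc3a2 (-0.10). Genes that rose were the exporter Abcc4, from 134 ± 3.05 to 231 ± 15.3 CPM (SD, n = 4 each; log2 fold change 0.78, edgeR adjusted p = 6.76e-10), Ggct (0.34), Chac2 (0.17) and Cbs (0.16). Slc3a2 encodes the heavy chain that carries SLC7A11 to the membrane. Its own change was small (edgeR adjusted p = 0.0276) and lost its call in 9 of 22 alternative fits, among them library totals alone (0.0638), a linear drift (0.681), and leaving out 1 of the control replicates 1 and 2 (0.0690 and 0.0506) or of the NaCl replicates 5 and 8 (0.0600 and 0.0585). The log2 ratio of Slc7a11 to Slc3a2 fell by 0.80 (exact two-sided permutation p = 0.029, adjusted 0.0343). With the library number as a linear drift, the log2 fold change of Cth was 0.08, in place of -0.57. The count of 4 that rose was 1 without NaCl replicate 5 and 2 without control replicate 2.

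**Figure D2:**
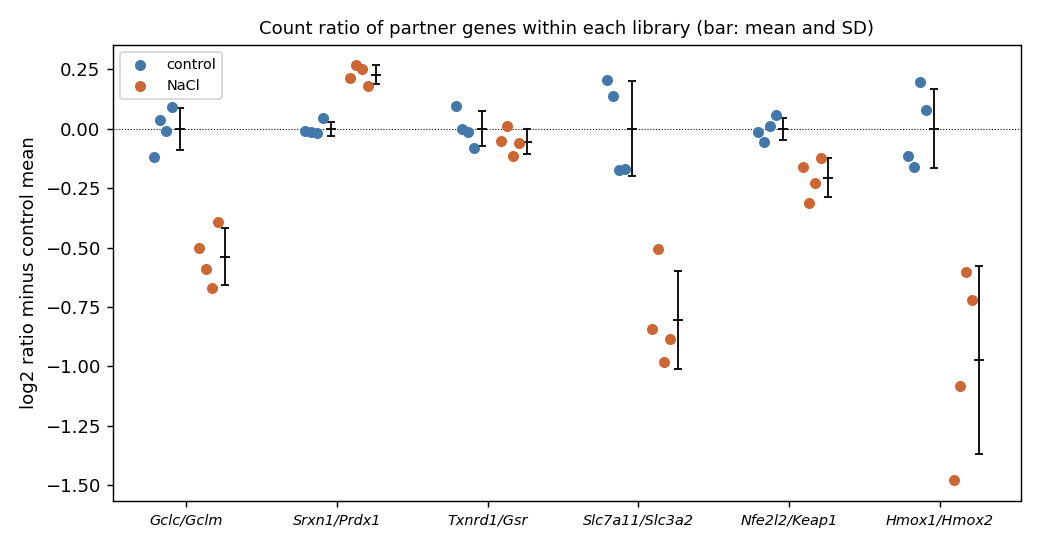
Log2 ratio of the counts of 2 partner genes within a library, as the difference from the control mean of that pair, for 6 pairs, with points for libraries and bars for the mean and SD of the group. The groups are apart in 5 pairs, with Srxn1/Prdx1 higher with NaCl and the other 4 lower, and overlap for Txnrd1/Gsr. The share of other gene pairs that lie apart was not computed, and 33.4% of single genes tested had groups that did not overlap.

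The reductases that return oxidised glutathione and thioredoxin to use both fell. Gsr (ENSMUSG00000031584, chr8:33652523-33698163, plus strand), glutathione reductase, had 216, 216, 209 and 214 CPM in control and 174, 170, 176 and 171 CPM in NaCl libraries. Spread within each group was narrow and the groups lay apart (log2 fold change -0.31, SE 0.031; edgeR adjusted p = 1.08e-06). Txnrd1 (ENSMUSG00000020250, chr10:82833951-82897712, plus strand), the cytosolic thioredoxin reductase, had 227, 213, 204 and 199 CPM in control and 165, 169, 160 and 162 CPM in NaCl libraries. All NaCl libraries were lower than all controls, and the fitted change was -0.36 on the log2 scale (SE 0.041; edgeR adjusted p = 3.43e-06). Txnrd1 moved with the library number within groups, by -0.041 per library on the log2 scale (adjusted p = 0.0382). With a linear drift over library numbers its log2 fold change was -0.20 and still passed (adjusted p = 0.0170). The mean log2 ratio of Txnrd1 to Gsr was -0.02 ± 0.074 in control and -0.08 ± 0.052 in NaCl (SD, n = 4 each), and the difference of -0.05 did not pass (exact two-sided permutation p = 0.286, adjusted 0.286).

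Prdx1 and Srxn1 act in sequence, since PRDX1 destroys hydrogen peroxide and SRXN1, sulfiredoxin, restores peroxiredoxins that have been overoxidised. Prdx1 (ENSMUSG00000028691, chr4:116685544-116700822, plus strand) had 478, 485, 433 and 425 CPM in control and 449, 417, 440 and 433 CPM in NaCl libraries. These groups overlapped, with a log2 fold change of -0.07 (SE 0.043, 95% interval -0.16 to 0.03; edgeR adjusted p = 0.260). Its transcript shares 26.02% of its length with Gm21399 at 98% identity or more, so part of its count is uncertain. Srxn1 (ENSMUSG00000032802, chr2:152105516-152111376, plus strand) had 48.5, 49.0, 43.7 and 44.8 CPM in control and 53.1, 51.2, 53.5 and 50.1 CPM in NaCl libraries. The lowest NaCl library lay just above the highest control, and the rise was 1.12-fold, a log2 fold change of 0.16 (SE 0.049, 95% interval 0.06 to 0.26; edgeR adjusted p = 0.0181). Leaving out control replicate 3, control replicate 4 or NaCl replicate 7 ended this call (adjusted p = 0.0703, 0.0506 and 0.0604), and with a linear drift the log2 fold change was 0.30 (adjusted p = 0.0117). The log2 ratio of Srxn1 to Prdx1 differed by 0.23, from -3.29 ± 0.029 in control to -3.06 ± 0.040 in NaCl (SD, n = 4 each; exact two-sided permutation p = 0.029, adjusted 0.0343).

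Around these genes the thioredoxin and peroxiredoxin list of 19 genes had 8 that fell, 1 that rose and 10 that did not pass, with a median log2 fold change of -0.11. Prdx4, the peroxiredoxin of the endoplasmic reticulum, fell from 78.5 ± 3.95 to 60.9 ± 5.75 CPM (SD, n = 4 each; log2 fold change -0.37, edgeR adjusted p = 2.88e-04). The sestrins differed, since Sesn2 fell (-0.35, edgeR adjusted p = 6.87e-05) and Sesn1 rose (0.38, adjusted p = 2.47e-04). Of 23 glutathione peroxidases, transferases and glutaredoxins tested, 6 fell, 1 rose (Gstm1, 0.23) and 16 did not pass, with a median of -0.08. Mgst1, a membrane-bound glutathione transferase, fell from 23.5 ± 1.04 to 12.0 ± 0.807 CPM (SD, n = 4 each; log2 fold change -0.97, edgeR adjusted p = 2.03e-08). Gsto1 (-0.31) and Glrx (-0.26) fell by less, and the Glrx call ended when any one of control replicates 2 and 4 or NaCl replicates 5 and 7 was left out (adjusted p from 0.0523 to 0.0676). Without NaCl replicate 5 the count that fell was 3 in place of 6, and without control replicate 2 the count that rose was 2 in place of 1. Gst genes are a family of similar sequences, so counts of single members are uncertain.

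Superoxide and peroxide removal outside these systems was covered by 5 genes. Sod3, the secreted superoxide dismutase, rose 3.71-fold from a low level, 2.13 ± 0.337 to 7.93 ± 1.38 CPM (SD, n = 4 each; log2 fold change 1.89, edgeR adjusted p = 6.48e-08). Catalase, Cat, fell (log2 fold change -0.20, edgeR adjusted p = 3.17e-04), and Sod1, Sod2 and Ccs did not pass, with log2 fold changes of 0.03, -0.10 and -0.09. Of the NADPH oxidase list, 4 genes were tested, of which 3 fell and 1 rose, with a median of -0.21. Nox4, the oxidase named for the kidney, fell slightly, with overlapping groups (-0.25, edgeR adjusted p = 0.00685). Cyba, the membrane subunit shared by several oxidases, fell too (-0.16). The largest decrease was in Xdh (-1.10, adjusted p = 4.79e-05), which is xanthine dehydrogenase and no NADPH oxidase. Noxo1, the organiser subunit of NOX1, rose to a level of 4.97 ± 0.342 CPM (SD, n = 4; log2 fold change 0.39, edgeR adjusted p = 0.0425), and lost its call without any one of control replicates 1, 2 and 3 or NaCl replicates 5 to 8 (adjusted p from 0.0549 to 0.135).

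Hmox1 (ENSMUSG00000005413, chr8:75093621-75100589, plus strand) encodes the inducible heme oxygenase, which opens heme to biliverdin, iron and carbon monoxide. Its values were 55.05, 56.3, 69.7 and 64.1 CPM in control and 29.7, 36.7, 49.0 and 49.3 CPM in NaCl libraries. Every NaCl library lay below every control, but libraries of a group were far apart, with NaCl replicate 5 the lowest. The log2 fold change was -0.57 (SE 0.18, 95% interval -1.005 to -0.14), and its edgeR adjusted p of 0.0516 missed the threshold. It passed in 13 of 22 alternative fits, among them DESeq2 (adjusted p = 0.00911), library totals alone (0.0410) and the fit without NaCl replicate 5 (log2 fold change -0.44, adjusted p = 0.0282). With a linear drift over library numbers the log2 fold change was -1.28 (adjusted p = 0.00622).

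Hmox2, the constitutive heme oxygenase, rose (log2 fold change 0.37, edgeR adjusted p = 1.22e-06). The log2 ratio of Hmox1 to Hmox2 fell by 0.97, from -0.84 ± 0.17 in control to -1.82 ± 0.40 in NaCl (SD, n = 4 each; exact two-sided permutation p = 0.029, adjusted 0.0343). Among the 15 other genes of heme and iron handling 4 rose, 5 fell and 6 did not pass, with a median log2 fold change of -0.01. Those that fell were the ferritin chains Ftl1 (1379 ± 15.3 to 1054 ± 14.6 CPM, SD, n = 4 each; log2 fold change -0.39, edgeR adjusted p = 3.35e-08) and Fth1 (-0.25), the iron exporter Slc40a1 (-0.45), biliverdin reductase Blvrb (-0.48) and the iron regulatory protein Aco1 (-0.10). Besides Hmox2, those that rose were Alas1, the entry enzyme of heme synthesis (0.32), Abcb6 (0.19) and Ncoa4 (0.13). The count of 4 was 2 without NaCl replicate 7, without NaCl replicate 8 or with a linear drift. Ferritin genes have pseudogene copies, so their counts are uncertain to that extent.

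Nqo1 (ENSMUSG00000003849, chr8:107388225-107403206, minus strand), which reduces quinones by 2 electrons and is widely read as an NRF2 reporter, had the largest change of the 10 genes. Its controls had 304, 282, 228 and 225 counts and its NaCl libraries 776, 814, 584 and 661, or 6.37, 6.68, 5.51 and 5.32 CPM against 21.6, 19.2, 14.2 and 15.7 CPM. The lowest NaCl library was more than 2 times the highest control. Its log2 fold change was 1.56 (SE 0.13, 95% interval 1.29 to 1.84; edgeR adjusted p = 3.68e-07), a 2.96-fold rise. The call was kept in all 22 alternative fits, with log2 fold changes from 1.46 to 2.16. Within groups Nqo1 fell by 0.15 per library number on the log2 scale (edgeR adjusted p = 0.00903), and the value of 2.16 is that with a linear drift over library numbers. The genes with the most similar pattern were Prkar2b, Tgfbi and Abcg1, at root-mean-square distances of 0.162, 0.167 and 0.180 on the log2 scale over the 8 libraries.

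**Figure D3:**
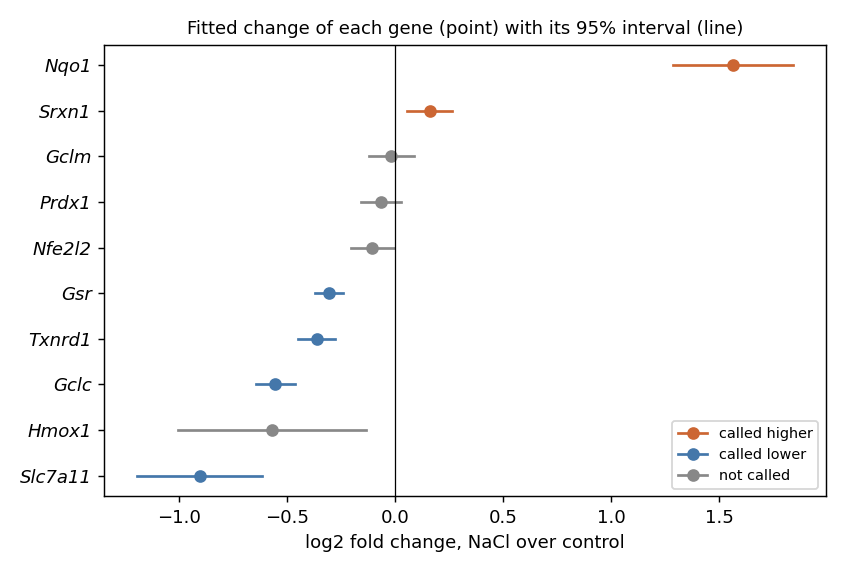
Fitted log2 fold change (NaCl over control, x axis) of the 10 genes with its 95% interval as a line, in orange or blue for genes called higher or lower and grey for genes not called. Nqo1 at 1.56 stands apart from the other 9, which lie between -0.90 and 0.16.

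Other enzymes that detoxify quinones and carbonyls changed in both directions. Of 17 tested, 2 rose (Akr1b8, 0.22, and Cbr1, 0.20), 4 fell and 11 did not pass, with a median log2 fold change of -0.0070. Among all genes tested, 34.1% were called, 16.9% higher and 17.2% lower, so these counts are near the general share. Nqo2, the closest relative of Nqo1, fell from 30.5 ± 2.61 to 24.7 ± 2.001 CPM (SD, n = 4 each; log2 fold change -0.31, edgeR adjusted p = 0.00320). Ugdh (-0.32), which makes the sugar donor for glucuronidation, and Ptgr1 (-0.27) fell too. Ugt1a7c, a glucuronosyltransferase, fell from 4.65 ± 0.171 to 1.83 ± 0.383 CPM (SD, n = 4 each; log2 fold change -1.33, edgeR adjusted p = 7.26e-06), and shares exons with the other Ugt1a genes, so its count is uncertain. With a linear drift over library numbers the log2 fold change of Nqo2 was 0.02 and 0 of the list were called higher, and leaving out any one of control replicates 1 and 4 or NaCl replicates 5 and 8 left 1.

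A further list held enzymes around the supply of NADPH, the electron source of GSR, TXNRD1 and NQO1. It covers enzymes that reduce NADP, the NAD kinases that make NADP, and Pgls, Taldo1 and Tkt, which belong to the pentose phosphate pathway and do neither. Of 13 tested, 5 rose, 1 fell and 7 did not pass, with a median log2 fold change of 0.06. Nadk2, the mitochondrial NAD kinase, rose 2.57-fold, from 64.6 ± 2.80 to 166 ± 6.13 CPM (SD, n = 4 each; log2 fold change 1.36, edgeR adjusted p = 3.62e-13). Me1, the cytosolic malic enzyme and a known NRF2 target, rose 2.21-fold, from 92.0 ± 4.27 to 203 ± 14.4 CPM (SD, n = 4 each; log2 fold change 1.14, edgeR adjusted p = 1.22e-10). Me3 (0.45), Idh1 (0.17) and Pgd (0.10) rose by less, and the cytosolic Nadk had the 1 decrease (-0.11). Without NaCl replicate 7, or with a linear drift, 3 of the list were called higher, and the call of Nadk ended without any one of control replicates 1 and 2 or NaCl replicates 6 to 8. G6pdx, the entry enzyme of the pentose phosphate pathway, had 0.06 and did not pass.

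Among 16 further genes often listed as NRF2 targets, 3 rose, 7 fell and 6 did not pass, with a median log2 fold change of -0.13. Gdf15, a stress-induced growth factor that several other pathways also control, rose from 63.9 ± 3.36 to 142 ± 7.78 CPM (SD, n = 4 each; log2 fold change 1.15, edgeR adjusted p = 1.55e-11), and Nupr1 (0.80) and the glycine transporter Slc6a9 (0.72) rose as well. Tbxas1, thromboxane synthase (log2 fold change -1.48), and Adh7, an alcohol dehydrogenase (-1.20), fell from 1.40 ± 0.216 and 7.33 ± 0.637 CPM (SD, n = 4 each; edgeR adjusted p = 4.92e-04 and 7.00e-06). With the library number as a linear drift, 2 of the 16 were called lower, in place of 7. Over all 10 lists together, 24 of 146 genes tested rose and 44 fell, and the median log2 fold change was -0.06.

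**Figure D4:**
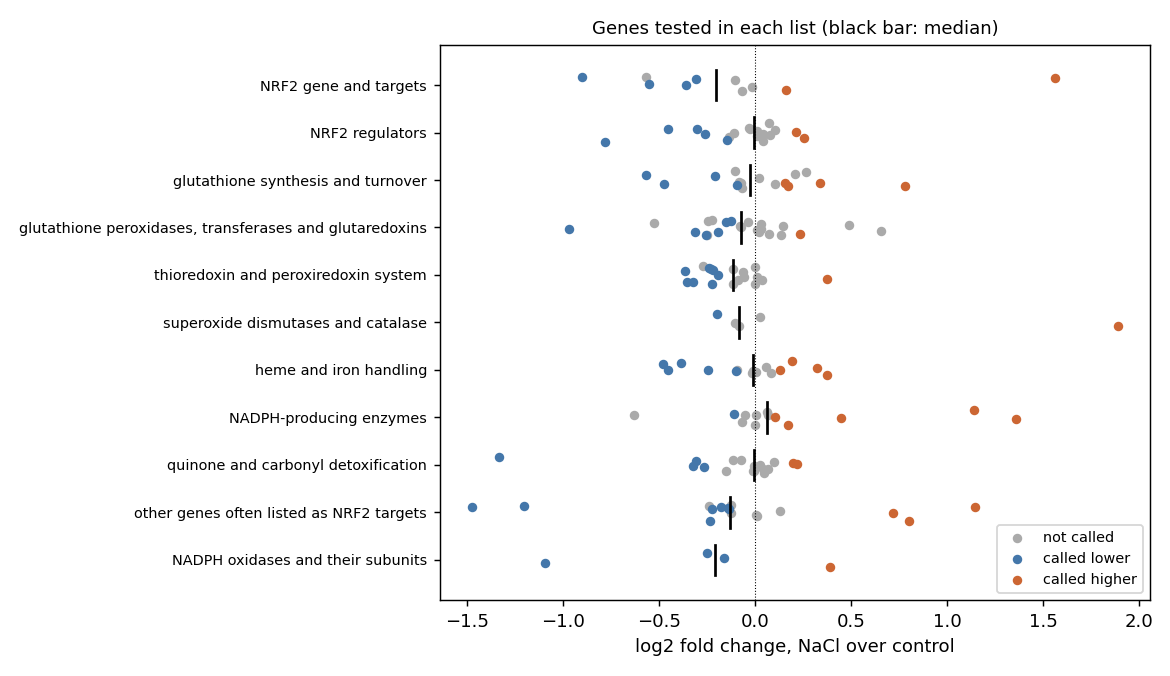
Log2 fold change (NaCl over control, x axis) of each tested gene in the set of 10 genes and in the 10 surrounding lists, in orange if called higher, blue if called lower and grey if not called, with the list median as a black bar. Medians lie between -0.21 and 0.06. Single genes such as Sod3, Nadk2, Nqo1, Gdf15 and Me1 stand far to the right of them, and others such as Tbxas1, Ugt1a7c, Adh7 and Xdh far to the left.

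Levels of the 10 genes were set side by side per length of exon, as CPM per kilobase, with all annotated exons of a gene merged. That length was 7086 bases for Txnrd1 and 1751 for Hmox1, against 3622 and 1569 in their longest protein-coding transcripts. The order and overlaps below hold for the merged length and can differ with another length. In controls Prdx1 was highest at 150 ± 10 (SD, n = 4), followed by Gsr at 77.6 ± 1.23 and Nfe2l2 at 47.1 ± 2.22. Hmox1 (35.0 ± 3.93) and Txnrd1 (29.8 ± 1.76) overlapped in their controls. Below them were Gclc (19.9 ± 0.411), Srxn1 (16.5 ± 0.95), Gclm (9.65 ± 0.546), Nqo1 (3.85 ± 0.425) and Slc7a11 (0.593 ± 0.0955), each clear of its neighbours. With NaCl the leading 3 kept their places at 143 ± 4.42, 62.8 ± 0.891 and 43.8 ± 2.93 (SD, n = 4 each). Srxn1 (18.4 ± 0.561) lay above Gclc (13.6 ± 0.654) in every NaCl library, the reverse of the controls. Nqo1 (11.4 ± 2.18) overlapped Gclm (9.54 ± 0.445) and Gclc, where it had been clear of both in controls, and Hmox1 (23.5 ± 5.52) overlapped Txnrd1 (23.2 ± 0.570) and Srxn1. Slc7a11 stayed lowest at 0.317 ± 0.050.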

How the data were processed

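RNA was extracted with Trizol and reverse transcribed with SuperScript IV, per the labels' protocols. The submitters' processing notes name Trim Galore 0.6.7, STAR, DESeq2 1.34.0 and the build mm10, with no role or order. The counting program, the annotation and the strandedness are not given in the sources used here. The authors deposited raw counts per gene and a table of normalized values, a signal that is each raw count over 1 factor per library (0.864 to 1.145).

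Raw counts were tested in edgeR 4.0.16 (R 4.3.3): filterByExpr at a minimum count of 10 removed 1264 genes holding 0.0191% of counts, TMM factors were used, and the robust quasi-likelihood fit had group as its only term over all 8 libraries. Genes were called at a Benjamini-Hochberg adjusted p under 0.05. Partner ratios used counts plus 0.5. Precision is given by the spread between libraries and covers no error shared by a group. Coordinates and exon lengths are from GENCODE M21 (GRCm38), which held 15282 of 15288 identifiers, and promoter windows from RefSeq. Shared sequence was sought with blastn 2.17.0, in alignments of at least 75 bases and 98% identity.

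All 10 genes were named. From each list the 3 called genes with the highest absolute log2 fold change were named, with any other called gene of at least 1, the partner genes, and the 3 genes nearest in pattern to Nfe2l2 and to Nqo1. Other genes that complete a count or show a list's core were chosen after their values were seen. The genes and lists were chosen with earlier results of these data known.

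Alternatives were median-of-ratios and upper-quartile factors, library totals alone, no filter, at least 10 counts in every library, DESeq2 1.42.0, limma-voom (limma 3.58.1), limma on the log2 of the deposited normalized signal plus 1, an adjusted p under 0.01, a test against a fold change of 1.5, thinning to the smallest library, the library number as a covariate centred within groups or as a linear drift, and leaving out each library. Leaving out control replicate 1 and NaCl replicate 5 together was added after seeing the data. On simulated counts for 14010 genes of this comparison, the fit recovered 80% of 60 changes of 0.5 on the log2 scale, 98.6% of 74 changes of 1 and 100% of 66 changes of 2, and 5.08% of 197 calls were false. The simulation changed only these genes, far fewer than the 34.1% called in the data, and held no slope along library number. Its rates may thus differ from those in the data.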

Additional observations from a re-analysis of the deposited data

Results flagged for a closer look

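Among 98 groups of 4 values, 5 held a library well apart from the rest of its group, where chance gives about 4.9. By total counts these were control replicate 1, at 47.57 M against 41.77 to 42.73 M in replicates 2 to 4, and NaCl replicate 5, at 35.29 M against 41.37 to 42.39 M in replicates 6 to 8. The same control replicate 1 was high for Adh7, at 8.277 CPM against 6.904 to 7.127 CPM. Gdf15 reached 153.1 CPM in NaCl replicate 5 and 136.6 to 138.7 CPM in the rest of that group. Noxo1 reached 5.476 CPM in NaCl replicate 7 and 4.763 to 4.854 CPM in the rest. None of the 10 NRF2 genes had such a library in either group.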

How the results depend on the processing

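Over 220 refits of the 10 genes under 22 alternatives, direction was kept in 215, and direction and call in 188. Of all genes, 4789 were called, 3145 at an adjusted p under 0.01 and 328 against a fold change of 1.5. Genes among the 10 called higher numbered 2, and 1 at an adjusted p under 0.01, 1 against a fold change of 1.5, and from 1 to 2 when single libraries were left out. Genes called lower numbered 4, and 5 in 12 alternatives, 6 in 2, and 0 against a fold change of 1.5, where Slc7a11 had an adjusted p of 0.140. The log2 ratio of Nfe2l2 to Keap1 was -0.21 (exact two-sided permutation p = 0.029, adjusted 0.0343) and from -0.23 to -0.17 when single libraries were left out. Its call was lost without control replicate 4 (-0.19, adjusted p = 0.0686). With a linear drift over library numbers the direction reversed for Gclm (0.16), Prdx1 (0.0837), Keap1 (-0.0072), Cth (0.0762), Nqo2 (0.0230) and Noxo1 (-0.0327). It also ended the calls of Nfe2l3 (-0.20, adjusted p = 0.728), Blvrb (-0.34, 0.182), Me3 (0.33, 0.0819), Tbxas1 (-1.44, 0.0784) and Slc3a2 (-0.04, 0.681). Gclm was also positive without both libraries with outlying totals (0.0029), without control replicate 1 (0.0111) and without NaCl replicate 8 (0.01335), in a range from -0.0538 to 0.01335 when single libraries were left out. Nfe2l2 passed with the drift (-0.31, adjusted p = 3.89e-04) and without control replicate 2 (0.0473) or NaCl replicate 8 (0.0127). Keap1 passed as higher with library totals alone (edgeR adjusted p = 0.0319) and with the library number centred within groups (0.0168). Keap1 also passed without NaCl replicate 5 (0.0129) and without both libraries with outlying totals (0.0212). With library totals alone 4 NRF2 regulators were called higher, in place of 2. The cause of these shifts was not tested. No paired analysis was possible because the groups share no replicate numbers. Slc7a11 and Nqo1, with 151 to 814 counts per library, rest on the fewest counts among the 10 genes.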
